A study of Homo sapiens with 8 samples.

Results

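The RNA levels of 35 genes of the actin cytoskeleton and of the SRF and YAP transcriptional programmes are described here in H9 human embryonic stem cells (hESCs) depleted of the chromatin remodeler CHD7 or of HERVH, a family of endogenous retroviral long non-coding RNAs. The genes were taken as a fixed list of gene symbols, in which CCN1 carries the older symbol CYR61 and CCN2 the older symbol CTGF. All 35 were found among the 57773 genes counted, and all 35 passed the expression filter that left 23474 genes for testing. The list was drawn up knowing that FLNC moves in opposite directions in HERVH KD and CHD7 KO cells. Its values in comparisons with those groups are therefore given as a description without a test. Counts of genes in these comparisons are over the 34 others, except where FLNC is said to be counted.

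The study sequenced rRNA-depleted RNA from 8 libraries in 4 groups of 2. The WT group was untreated H9 cells carrying an HA tag on the endogenous CHD7 gene. The HERVH KD group had the same tagged genotype and received LNA-GapmeRs, antisense oligonucleotides that direct RNase H to a transcript, against HERVH for 24 h. The CHD7 KO group was untreated and CHD7 -/-, and the HERVH KO group was untreated with a deletion of 1 HERVH element on chromosome 2. Both knockouts are edited clonal lines, and the labels do not say which clone a library came from or whether replicates were separate cultures, so p-values measure only the spread between these libraries. By the methods of the study, cells receiving GapmeRs were dissociated to single cells, seeded with a ROCK inhibitor and transfected with a lipid reagent. No library of cells given a control GapmeR was analysed here, so in the HERVH KD group the loss of HERVH cannot be told apart from transfection, dissociation or the ROCK inhibitor.

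SRF is a transcription factor that binds CArG boxes and controls genes of the actin cytoskeleton. Its cofactors of the MRTF family are held inactive by monomeric actin, so polymerisation of actin releases them to the nucleus. YAP and its relative TAZ, the product of WWTR1, are coactivators of the TEAD factors, are restrained by the LATS kinases of the Hippo pathway, and respond to cell spreading and actin tension. Many genes of smooth muscle contraction and of focal adhesions are shared targets of these programmes.

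The promoters of the list were searched for the motifs of both factors. The RefSeq table of promoters (build GRCh38.p14), which spans 250 bases before to 50 bases after each start site, held 31 of the 35 genes. Only the first promoter listed for each gene symbol was searched. CCN1, ACTB, TAGLN and MYL9 had no entry. A CArG box was present in 6 of the 31 (19.4%), in SRF, ACTG1, CNN2, TPM4, FLNA and FHL2, against 1.28% of all 27305 promoters searched. The TEAD core GGAATG, searched on both strands, was present in 9 of the 31 (29.0%), in YAP1, CCN2, ANKRD1, LATS2, MYH9, VCL, FLNC, THBS1 and CALD1, against 14.1% of the promoters searched. No promoter searched for the list held both motifs, and other promoters of these genes were not searched. A match is a description of the letters and does not show that a factor binds. The stretches below are shown because they hold the SRF motif of SRF itself and of abundant cytoskeletal genes, and the TEAD core of the YAP target CCN2 and of FLNC. They are written 5′ to 3′ on the strand of the gene, with 1 motif in capitals. The windows of SRF and CCN2 each hold a second motif, left in lower case.
SRF, chr6:43171214-43171268, plus strand, box starting 30 bases before the start site: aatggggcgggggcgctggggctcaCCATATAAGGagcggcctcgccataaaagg
ACTG1, chr17:81512859-81512918, minus strand, box starting 94 bases before the start site: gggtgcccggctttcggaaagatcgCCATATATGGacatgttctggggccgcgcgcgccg
CNN2, chr19:1026494-1026553, plus strand, box starting 89 bases before the start site: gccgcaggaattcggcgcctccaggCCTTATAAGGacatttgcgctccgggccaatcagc
FLNA, chrX:154374694-154374753, minus strand, box starting 94 bases before the start site: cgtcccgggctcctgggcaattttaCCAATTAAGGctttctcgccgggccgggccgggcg
CCN2, chr6:131951446-131951501, minus strand, core starting 104 bases before the start site: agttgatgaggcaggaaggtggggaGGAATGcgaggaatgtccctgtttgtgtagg
FLNC, chr7:128830278-128830333, plus strand, core on the opposite strand starting 103 bases before the start site: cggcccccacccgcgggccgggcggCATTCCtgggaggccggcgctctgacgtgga

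Library depth ranged from 14802049 counts in HERVH KD replicate 2 to 23156445 in HERVH KO replicate 1, so that 3 counts, taken as the floor of detection, corresponded to between 0.128 and 0.218 CPM, the count scaled by the size of the library. CHD7 RNA, the targeted transcript, was 651 and 650 CPM in WT and 197 and 197 CPM in CHD7 KO, with no overlap. The HERVH KD replicates were the least alike, with a typical gene varying by an SD of 0.254 in log2 CPM (median over genes), against 0.125 in WT, 0.111 in CHD7 KO and 0.0821 in HERVH KO. The 2 HERVH KD libraries also differed by base composition, since the median difference of replicate 2 from replicate 1 rose from -0.36 to 0.66 (log2 CPM) between the genes of lowest and of highest exonic GC content, binned into 5 equal sets. The listed genes had a median GC content of 54.2%, against 47.6% for 12480 expressed genes, and 28 of the 35 were higher in HERVH KD replicate 2 than in replicate 1. All hESC markers examined, including POU5F1, SOX2 and NANOG, were detected in all groups, with a summed level of 7556 to 8801 CPM across the 8 libraries.

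Levels per kilobase of exon in WT cells spanned from 787 RPKM for ACTB to 0.103 RPKM for ACTA2. The length used was that of all annotated exons of a gene merged, which can exceed its mRNA and lower its RPKM. The most abundant genes were the cytoplasmic actins ACTB and ACTG1 (508 RPKM), the filamin FLNA (219 RPKM), the calponin CNN2 (115 RPKM) and vinculin, VCL (93.5 RPKM), which are general components of the non-muscle cytoskeleton. Some contractile smooth muscle genes lay toward the other end, with TAGLN at 2.82 RPKM, CNN1 at 2.69 RPKM and ACTA2, smooth muscle alpha-actin, at the bottom. The tropomyosins TPM2 and TPM1 and the caldesmon CALD1 lay in the middle of the order, at 25.8, 21.6 and 21.9 RPKM. FLNC, the muscle filamin, stood at 6.65 RPKM, far below FLNA. YAP1 was at 22.6 RPKM and its relative WWTR1 at 2.45 RPKM, while SRF was at 24.1 RPKM. SRF and YAP1 did not differ beyond the spread of the SRF replicates (88.2 and 116 CPM), and neither did F3, FHL2 and CNN1, which lay between 2.54 and 2.69 RPKM. In bulk RNA, expression in fewer cells and a lower level per cell cannot be told apart.

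**Figure D1:**
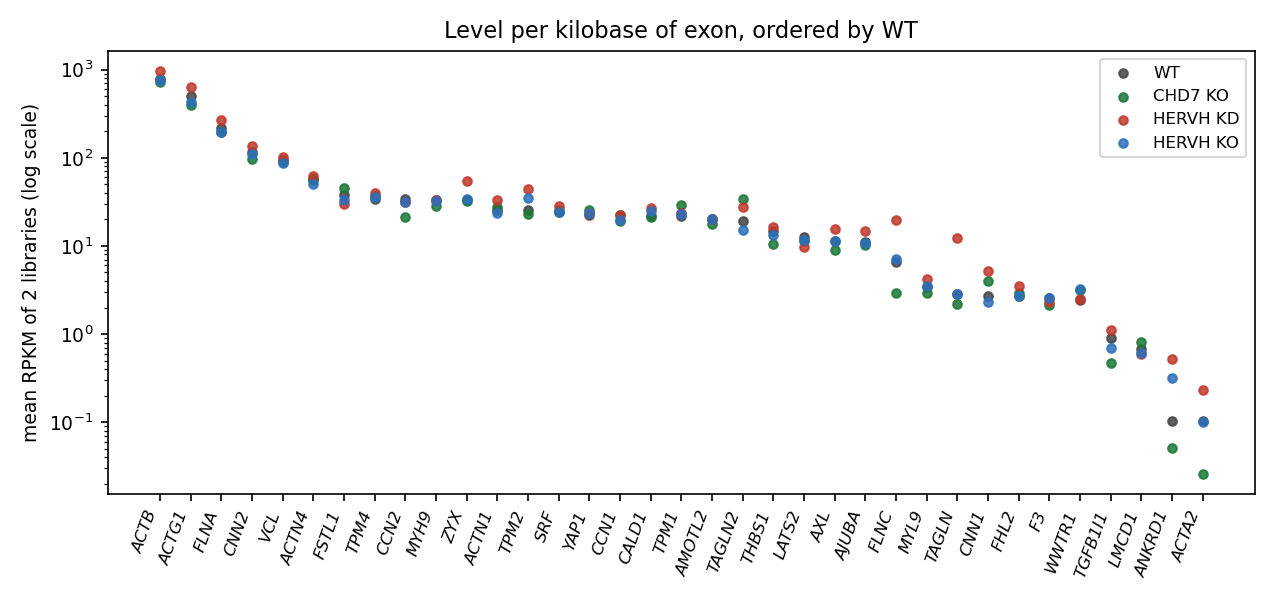
Mean RPKM of 2 libraries (log axis) of the 35 genes in each group, ordered by the WT level. The order runs from ACTB at 787 RPKM to ACTA2 at 0.103 RPKM in WT, and the HERVH KD points of FLNC and TAGLN stand above those of the other groups.

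The first comparison asked how this programme responded to knockdown of HERVH for 24 h. The contractile gene TAGLN and the adhesion gene ZYX were higher in HERVH KD than in WT, by 4.32-fold and 1.65-fold, and no listed gene was lower at the same threshold. FLNC, described without a test, was 2.94-fold above WT. The actins, crosslinkers, tropomyosins and calponins had positive differences in most cases, while those of the transcription factors and YAP targets were mixed. A differentially expressed gene (DEG) was one with an FDR below 0.01 and at least 2-fold in edgeR's quasi-likelihood test. The cutoffs are those of the study, which names edgeR but not this test or a joint fit of all groups. The study listed many more DEGs in HERVH KD and HERVH KO than were called here, so DEG counts given here are not its results. Of the 34 genes, 1 was a DEG, TAGLN, against 0.217% of all genes tested. It was not a DEG in the fit of only the 4 libraries compared or without any 1 of the WT and CHD7 KO libraries. At an FDR below 0.05 with no minimum fold, 2 of 34 were higher (0.618% of all genes) and 0 of 34 were lower (1.53% of all genes). At an unadjusted p below 0.05, 8 were higher (9.19% of all genes) and 2 were lower (9.82% of all genes). DESeq2 called 4 higher (2.81% of all genes) and 0 lower (4.76% of all genes). Shares for DESeq2 are of the genes to which it gave an adjusted p. The groups did not overlap, with both HERVH KD libraries higher, for 14 of the genes (22.5% of all genes), and with both lower for 3 (22.3% of all genes), namely LATS2, F3 and FSTL1. ANKRD1 is among these 14 and among the 8 at an unadjusted p below 0.05. It passed the expression filter through its HERVH KD and HERVH KO libraries, so its place in these counts is no support.

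TAGLN encodes transgelin, an actin-binding protein of smooth muscle and a classical SRF target, on chr11:117070086-117078180 of GRCh37. Its level was 15.0 and 22.0 CPM in WT, 15.5 and 13.3 CPM in CHD7 KO, 55.0 and 105 CPM in HERVH KD, and 17.6 and 19.3 CPM in HERVH KO. Both HERVH KD libraries lay above all 6 others, and HERVH KD replicate 2 was the higher of the pair. The log2 fold change against WT was 2.11 ± 0.28 (SE, n = 2 libraries a group; edgeR FDR = 0.00572). The call was lost without WT replicate 1, at a log2 fold change of 1.85 (edgeR FDR = 0.0687), a fit in which 0 of the 34 genes were called higher. TAGLN overlaps PCSK7 on the opposite strand, and the strand setting of the counting was not stated.

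FLNC encodes filamin C, an actin crosslinker of muscle Z-discs, on chr7:128470460-128499328 of GRCh37. Its level was 55.4 and 67.5 CPM in WT, 165 and 197 CPM in HERVH KD, 25.6 and 28.9 CPM in CHD7 KO, and 63.2 and 68.1 CPM in HERVH KO. The HERVH KD libraries were above, and the CHD7 KO libraries below, all libraries of the other groups. The log2 fold change was 1.56 ± 0.17 (SE) in HERVH KD and -1.17 ± 0.17 (SE) in CHD7 KO, the latter a 2.25-fold reduction. In HERVH KO it was 0.09 ± 0.17 (SE; edgeR FDR = 1). The median change of the 43 expressed neighbours within 5 Mb of FLNC was 0.04 in HERVH KD and -0.04 in CHD7 KO.

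ZYX encodes zyxin, a focal adhesion protein that is recruited to actin fibres under tension, on chr7:143078388-143088204 of GRCh37. Its level was 105 and 111 CPM in WT, 160 and 195 CPM in HERVH KD, 112 and 102 CPM in CHD7 KO, and 104 and 119 CPM in HERVH KO. The HERVH KD libraries were the 2 highest of the 8. The log2 fold change in HERVH KD was 0.72 ± 0.16 (SE; edgeR FDR = 0.0326). The call was lost in a fit of only the 4 libraries compared (edgeR FDR = 0.192) and without either WT library (edgeR FDR = 0.366 and 0.109), either CHD7 KO library (0.0662 and 0.0655) or either HERVH KO library (0.0742 and 0.0768). ZYX overlaps EPHA1 on the opposite strand.

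Among the other contractile genes, the calponin CNN1 and the tropomyosin TPM2 followed, without passing the threshold. CNN1, which inhibits actomyosin ATPase in smooth muscle, was at 8.27 and 7.02 CPM in WT and at 11.6 and 17.9 CPM in HERVH KD (log2 fold change 0.94 ± 0.25 SE; edgeR FDR = 0.0687). TPM2 was at 91.3 and 72.8 CPM in WT and at 96.5 and 188 CPM in HERVH KD, so its difference of 0.79 ± 0.25 (SE) rested mostly on replicate 2 (edgeR FDR = 0.111). Both passed an FDR of 0.05 in DESeq2 (0.017 for CNN1 and 0.0389 for TPM2) and after a correction for GC content (0.0236 and 0.0283). The GC-corrected fit called 5 genes higher, namely TAGLN, ZYX, CNN1, TPM2 and the caldesmon CALD1 at 0.40 (edgeR FDR = 0.0445). It called 1 lower, the Hippo kinase LATS2 at -0.42 (edgeR FDR = 0.0475). The share of all genes called in that fit is not given here.

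ACTA2 and ANKRD1 had large differences with wide errors that did not pass the test. ACTA2 was at 0.554 and 0.608 CPM in WT and 1.64 and 0.947 CPM in HERVH KD, from 12 and 13 against 30 and 13 counts. Its log2 fold change was 1.16, with an FDR of 0.228 to 0.8 over the fits tried in edgeR and DESeq2. It overlaps FAS and STAMBPL1 on the opposite strand, whose counts were higher than its own. ANKRD1, a cardiac ankyrin repeat protein much used as a YAP readout, had 2 and 6 counts in WT and 26 and 6 counts in HERVH KD, a log2 fold change of 2.31 ± 0.93 (SE; edgeR FDR = 0.202). It had 4 and 0 counts in CHD7 KO and 14 and 10 counts in HERVH KO, and passed the expression filter through its HERVH KD and HERVH KO libraries.

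Over the 34 genes, the median log2 fold change in HERVH KD was 0.26, against 0.04 for all genes tested, and 26 of 34 (76.5%) were above 0, against 52.9% of all genes. The 26 include ANKRD1, which passed the expression filter through its HERVH KD and HERVH KO libraries. All 6 actins and crosslinkers other than FLNC and 9 of 10 genes of the myosin, tropomyosin and calponin family lay above 0, with medians of 0.32 and 0.29. The 7 targets of YAP, which are secreted proteins and receptors apart from ANKRD1, had a median of -0.00, with 3 above 0, ANKRD1 among them. The 6 transcription factors and Hippo regulators had a median of 0.06. This shift differed between the libraries, with a median of 0.07 in replicate 1 and 0.41 in replicate 2. Without HERVH KD replicate 2 the median was 0.06, and 19 of 34 genes were above 0 (55.9%), with ACTB, ACTG1 and ACTN4 below 0, which left 3 of the 6 actins and crosslinkers above 0. Without HERVH KD replicate 1 the median was 0.35, and 29 of 34 genes were above 0 (85.3%). After the GC correction the median over all 35 genes was 0.155.

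**Figure D2:**
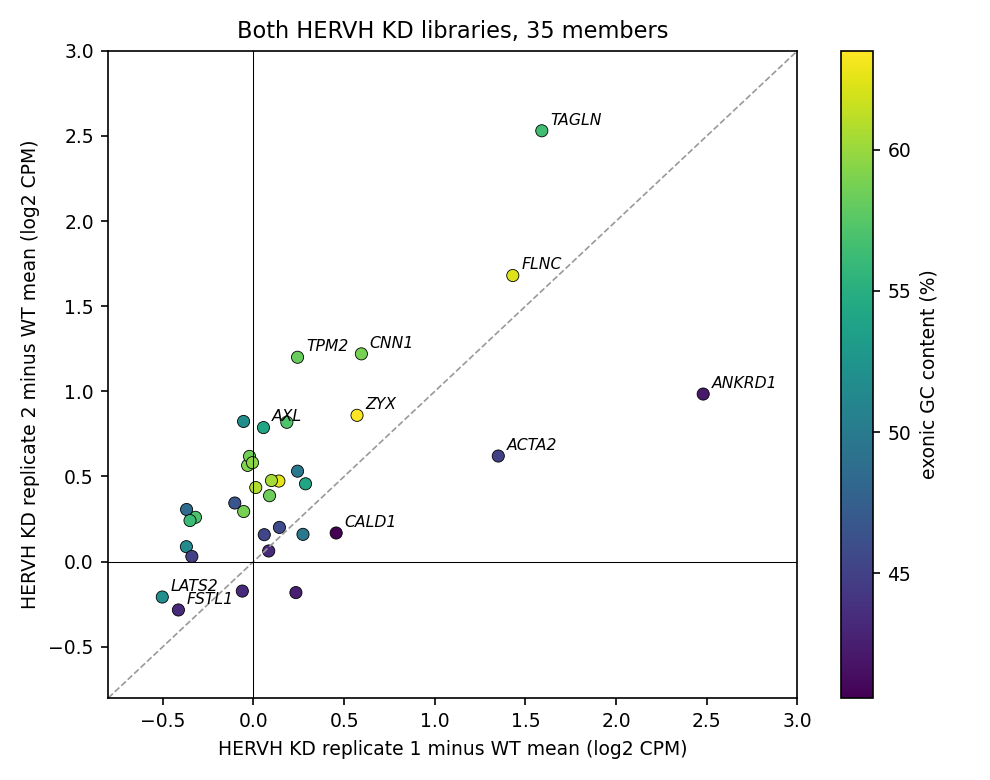
Change of each of the 35 genes from the WT mean (log2 CPM) in HERVH KD replicate 1 (horizontal) and replicate 2 (vertical), coloured by exonic GC content. TAGLN, FLNC, CNN1, ZYX, ANKRD1 and ACTA2 lie farthest up and to the right, and 28 of 35 points lie above the dashed line of equality.

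None of the 6 transcription factors and Hippo regulators passed the test in HERVH KD. SRF was at 88.2 and 116 CPM in WT and at 102 and 137 CPM in HERVH KD, with overlapping groups and a log2 fold change of 0.23 ± 0.18 (SE). YAP1 was at 136 and 149 CPM in WT and 151 and 149 CPM in HERVH KD, a difference of 0.07. WWTR1 was at 19.3 and 21.7 CPM in WT and 24.0 and 18.0 CPM in HERVH KD, a difference of 0.04. LATS2, a kinase that phosphorylates YAP, was at 70.5 and 70.1 CPM in WT and 49.6 and 60.8 CPM in HERVH KD, a difference of -0.35 without a call in the uncorrected fit. It was called without HERVH KD replicate 2 (edgeR FDR = 0.0392). AJUBA, a LIM protein that binds the LATS kinases, was called higher without HERVH KD replicate 1 (0.76, edgeR FDR = 0.00305) and was at -0.08 without replicate 2. The matricellular gene CCN2, a direct YAP target, overlapped between HERVH KD (61.4 and 84.4 CPM) and WT (73.0 and 86.4 CPM).

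**Figure D3:**
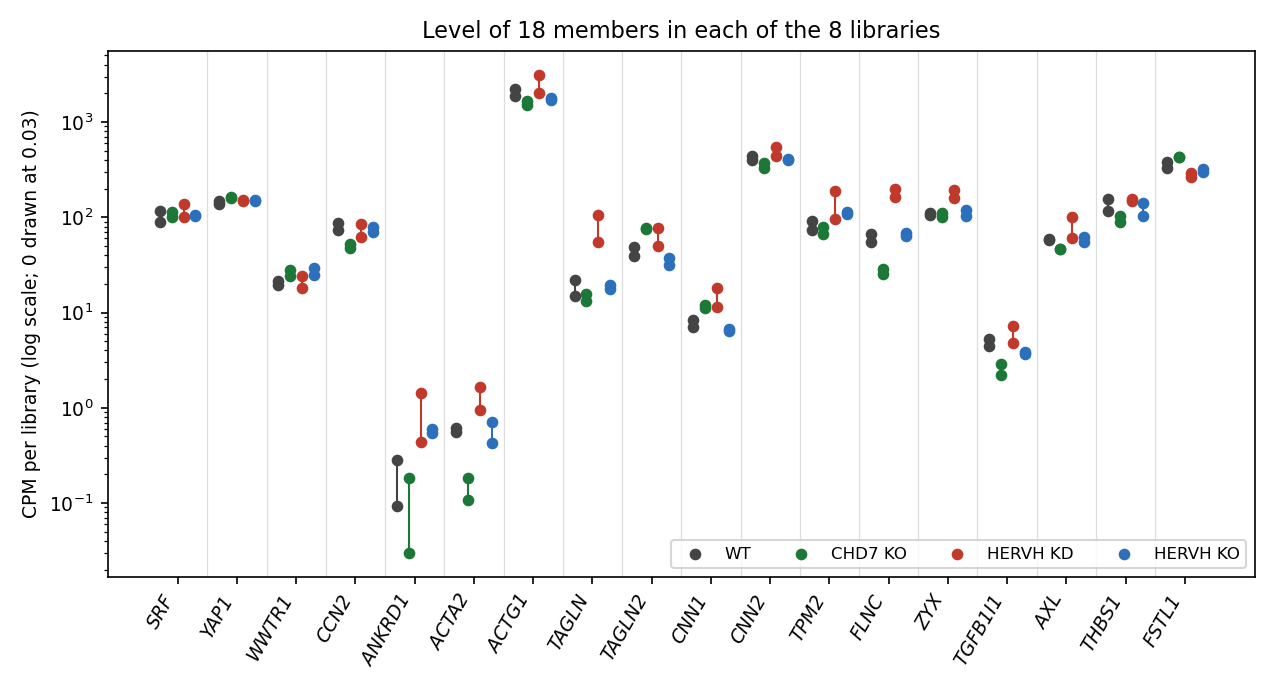
CPM (log axis) of 18 of the genes in each of the 8 libraries, with a line joining the 2 replicates of a group; the ANKRD1 library with 0 counts is drawn at 0.03. HERVH KD (red) stands above all other groups for TAGLN, FLNC, ZYX, CNN2 and ACTA2. CHD7 KO (green) stands below all other groups for FLNC, CCN2, TGFB1I1, ACTA2, AXL, THBS1, ACTG1 and CNN2.

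The second comparison asked what loss of CHD7 did to the same genes. FLNC lay below WT, as given above, and none of the 34 other genes passed the test in either direction. In edgeR 0 of 34 were DEGs (0.571% of all genes), and at an FDR below 0.05, 0 were higher (1.19% of all genes) and 0 were lower (0.613% of all genes). At an unadjusted p below 0.05, 3 were higher (6.25% of all genes) and 4 lower (4.61% of all genes). DESeq2 called 1 higher, TAGLN2 (2.24% of all genes), and 1 lower, CCN2 (1.35% of all genes). The groups did not overlap for 7 genes higher (21.5% of all genes) and 13 genes lower (22.4% of all genes) in CHD7 KO.

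Genes with negative differences that did not pass the test included the secreted YAP targets CCN2 and THBS1, the adhesion gene TGFB1I1 and ACTA2. CCN2 was at 73.0 and 86.4 CPM in WT and at 47.9 and 52.4 CPM in CHD7 KO, without overlap, a log2 fold change of -0.67 ± 0.18 (SE; edgeR FDR = 0.0982). THBS1, thrombospondin, was at 117 and 154 CPM in WT and 90.0 and 103 CPM in CHD7 KO, a difference of -0.49. TGFB1I1, which encodes the focal adhesion coactivator Hic-5, was at 5.26 and 4.44 CPM in WT and 2.22 and 2.90 CPM in CHD7 KO, a difference of -0.92 ± 0.31 (SE; edgeR FDR = 0.206). ACTA2 had 12 and 13 counts in WT and 4 and 2 counts in CHD7 KO, a difference of -1.93 at very low counts (edgeR FDR = 0.306). CCN2 and THBS1 passed an FDR of 0.05 in the fit of the 4 libraries compared (0.00528 and 0.0442) and in fits without either HERVH KD library, the most variable group. In the latter fits the cytoplasmic actin ACTG1 was also called lower (-0.36 and -0.37; edgeR FDR = 0.0269 and 0.0166). CCN2 also passed after the GC correction (FDR = 0.0103) and without the expression filter (FDR = 0.0279).

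Some genes were above WT in the CHD7 KO libraries. TAGLN2, a broadly expressed transgelin, was at 48.7 and 38.9 CPM in WT and 77.6 and 75.0 CPM in CHD7 KO (0.80 ± 0.21 SE; edgeR FDR = 0.0789). The 104 expressed genes within 5 Mb of TAGLN2 on chromosome 1 had a median of 0.52 in the same comparison, against -0.01 for all genes tested, so its neighbours were elevated too. The part of this regional difference in that of TAGLN2 was not tested. TPM1 was at 324 and 311 CPM in WT and 437 and 421 CPM in CHD7 KO, a difference of 0.43, and CNN1 was at 8.27 and 7.02 against 11.9 and 11.1 CPM, a difference of 0.59. TAGLN2 and TPM1 passed an FDR of 0.05 in the fit of the 4 libraries (0.00143 and 0.0259) and without either HERVH KD library.

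Across the 34 genes, the median in CHD7 KO was -0.14, against -0.01 for all genes, and 11 of 34 genes (32.4%) were above 0, against 48.5% of all genes. Over all 35 it was -0.04 without WT replicate 2 and -0.05 without CHD7 KO replicate 2. The 7 YAP targets, ANKRD1 included, had the lowest median of the 5 groups, -0.33. TAGLN was at 15.5 and 13.3 CPM, a difference of -0.36 that overlapped with WT. SRF (115 and 99.7 CPM; 0.07), YAP1 (163 and 161 CPM; 0.18) and WWTR1 (24.3 and 28.0 CPM; 0.35) did not pass the test.

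**Figure D4:**
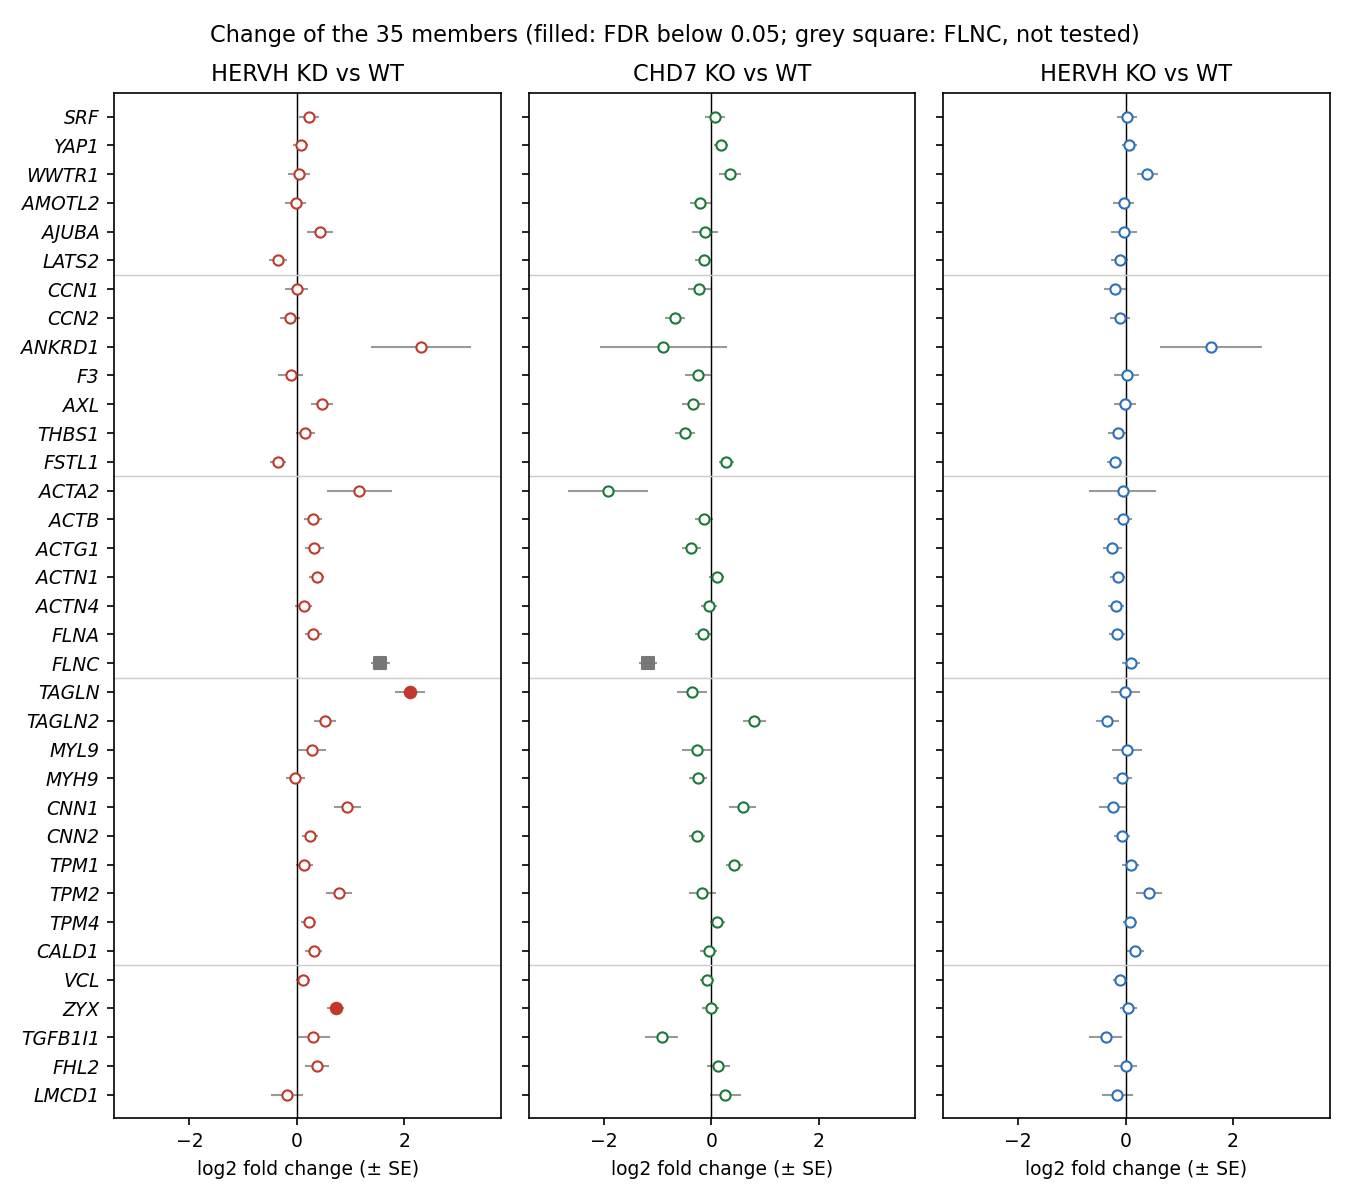
Log2 fold change against WT with SE for the 35 genes in the 3 comparisons, grouped by role between the grey lines; filled circles have an edgeR FDR below 0.05, and the grey square is FLNC, not tested in HERVH KD and CHD7 KO. TAGLN and ZYX are filled on the positive side in HERVH KD, and no gene is filled in CHD7 KO or HERVH KO.

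The third comparison concerned the deletion of 1 HERVH element. No listed gene passed the test against WT. In edgeR 0 of 35 were DEGs (0.0298% of all genes), 0 were higher (0% of all genes) and 0 were lower (0.0724% of all genes). At an unadjusted p below 0.05, 0 were higher (0.895% of all genes) and 0 lower (1.73% of all genes), and DESeq2 called 0 higher (0% of all genes) and 0 lower (0.0852% of all genes). Both HERVH KO libraries were above WT for 6 genes (17.7% of all genes) and below for 10 (20.3% of all genes). The 6 include ANKRD1, which passed the expression filter through its HERVH KD and HERVH KO libraries. The median was -0.05, against -0.02 for all genes. The largest differences were those of ANKRD1 (1.58 ± 0.95 SE), TPM2 (108 and 114 CPM; 0.44 ± 0.24 SE) and WWTR1 (29.4 and 24.8 CPM; 0.41 ± 0.20 SE), each with an edgeR FDR of 1. SRF was at 105 and 102 CPM and YAP1 at 148 and 153 CPM in HERVH KO. TAGLN, FLNC and ZYX, which lay above WT in HERVH KD, overlapped with WT in HERVH KO.

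The 3 comparisons share the WT libraries, so the groups were also compared directly in the same fit. Between HERVH KD and CHD7 KO, 9 of 34 genes were higher in HERVH KD (3.8% of all genes) and 1 was lower (5.65% of all genes). The genes higher were TAGLN (2.47 ± 0.29 SE; edgeR FDR = 0.000255), ACTA2 (3.09 ± 0.72 SE; FDR = 0.0177), TGFB1I1 (1.23 ± 0.32 SE; FDR = 0.0282), TPM2 (0.95), the receptor kinase AXL (0.80), ZYX (0.73), ACTG1 (0.70), THBS1 (0.65) and CNN2 (0.51). The gene lower in HERVH KD was FSTL1, a secreted follistatin-like glycoprotein (-0.63 ± 0.14 SE; edgeR FDR = 0.0146), at 266 and 291 CPM against 432 and 433 CPM. A fit of the 4 libraries alone called 2 genes higher, TAGLN and ACTA2, and only TAGLN was called when either CHD7 KO library was left out. The FSTL1 call was lost in the same fits (edgeR FDR = 0.0955, 0.0821 and 0.0989). TAGLN kept its call in all fits, and ZYX and CNN2 lost theirs after GC correction (FDR = 0.0709 and 0.128).

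Between HERVH KD and HERVH KO, 2 of 34 genes were higher in HERVH KD (0.648% of all genes) and 0 were lower (0.686% of all genes). These were TAGLN (2.11 ± 0.28 SE; edgeR FDR = 0.0039) and CNN1 (1.17 ± 0.26 SE; FDR = 0.0427), the last at 11.6 and 17.9 CPM against 6.33 and 6.69 CPM. At an unadjusted p below 0.05, 9 were higher (10.5% of all genes) and 0 lower (8.6% of all genes), and DESeq2 called 5 higher (3.16% of all genes) and 0 lower (3.53% of all genes). The CNN1 call was lost in 7 of the 8 fits that left out a library, the exception being that without HERVH KD replicate 1. Neither gene was called in a fit of the 4 libraries alone (TAGLN, edgeR FDR = 0.116).

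Other genes of the same pathways, taken from 4 lists of known SRF cofactors, SRF targets and Hippo pathway proteins, passed the test in small numbers. In HERVH KD, 4 of 25 other SRF and MRTF targets were higher (0.618% of all genes) and 1 lower (1.53% of all genes), with a median of 0.09. The 4 were ACTG2, enteric smooth muscle actin (0.693 and 0.421 CPM in WT, 2.57 and 2.18 CPM in HERVH KD; 2.09, edgeR FDR = 0.027), ACTA1, skeletal alpha-actin (3.05 and 3.98 against 11.6 and 15.9 CPM; 1.96, FDR = 0.00733), the focal adhesion adaptor PXN (0.96, FDR = 0.0122) and PDLIM7 (0.94, FDR = 0.0409). The gene lower was FHL1 (-0.79, FDR = 0.018). All 5 calls were lost without WT replicate 1, and all but that of ACTA1 in a fit of the 4 libraries compared. Those of ACTG2 and FHL1 were also lost without WT replicate 2, and that of PDLIM7 without any 1 of the CHD7 KO and HERVH KO libraries.

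Of 12 immediate early SRF targets, 0 were higher (0.618% of all genes) and 2 were lower (1.53% of all genes) in HERVH KD, FOSB (38.7 and 21.7 CPM in WT, 1.04 and 1.82 CPM in HERVH KD; -4.43, edgeR FDR = 0.00733) and FOS (73.6 and 48.6 against 14.2 and 17.3 CPM; -1.96, FDR = 0.0164). Both genes also varied between replicates of other groups, FOSB being at 14.5 and 2.81 CPM in HERVH KO, and both calls were lost without WT replicate 1.

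None of 21 Hippo kinases, TEADs and partners, and none of 6 MRTF and TCF cofactors, passed in HERVH KD. In CHD7 KO, where 1.19% of all genes were called higher and 0.613% lower, 1 of the 25 SRF and MRTF targets was higher, as was 1 of the 21 Hippo genes, and 1 of the latter was lower. ACTG2 was higher (6.24 and 4.30 CPM; 3.23, edgeR FDR = 0.00118), the YAP-binding phosphatase PTPN14 was higher (0.67, FDR = 0.0221) and the angiomotin AMOTL1 was lower (-0.64, FDR = 0.0496). The PTPN14 and AMOTL1 calls were lost without any 1 of the WT, CHD7 KO or HERVH KO libraries. In HERVH KO no gene of these 4 lists passed.

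**Figure D5:**
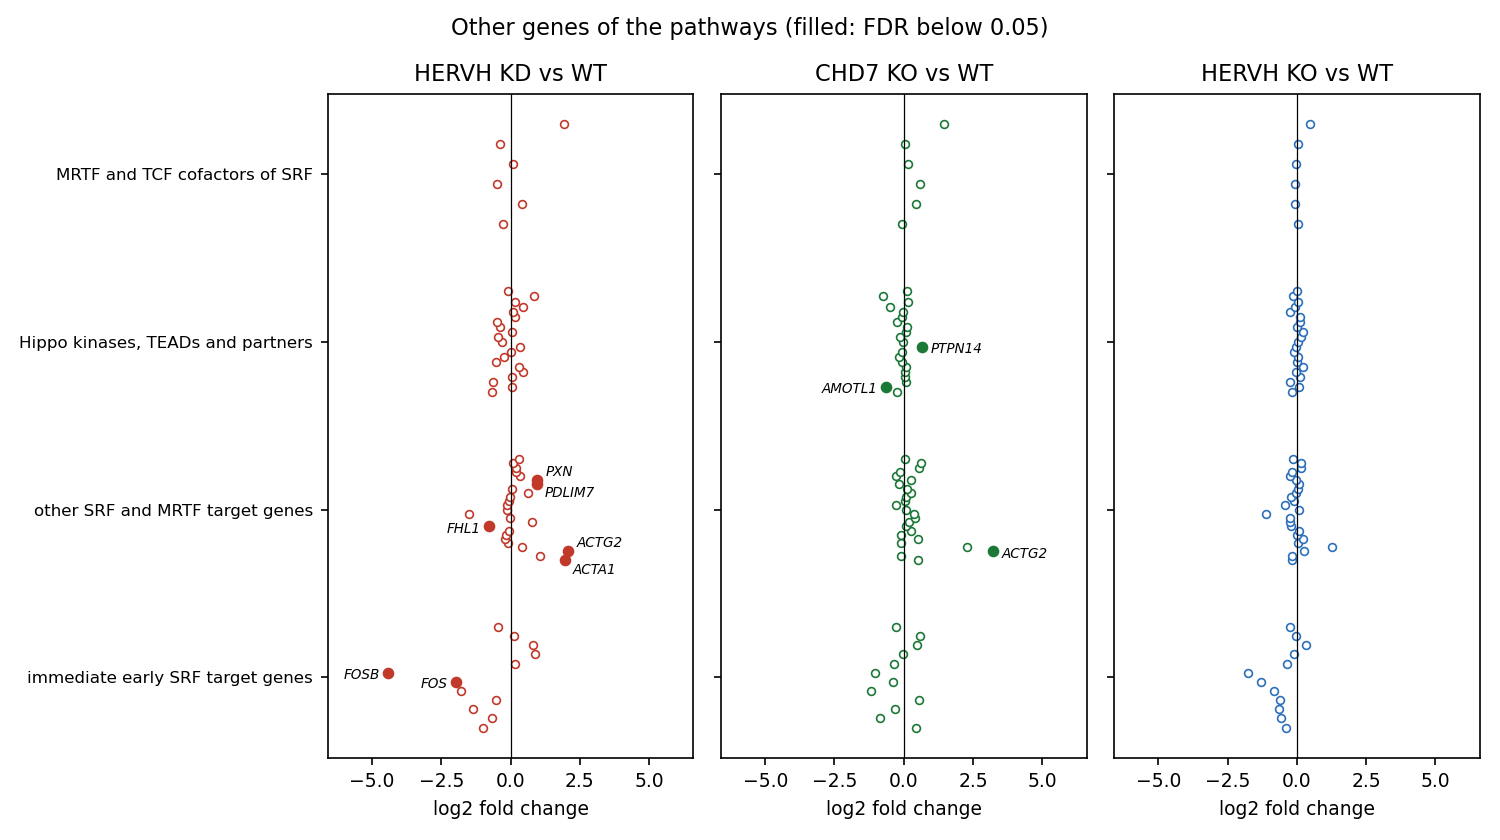
Log2 fold change against WT of the genes of 4 pathway lists that are not among the 35, 1 point a gene; filled and named points have an edgeR FDR below 0.05. FOSB at -4.43 and ACTG2 at 2.09 are the extremes in HERVH KD, and no point is filled in HERVH KO.

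Markers of other cell types that express contractile genes were examined beside these results. Of 10 smooth muscle markers, 1 of which is CNN1, ACTG2 alone was called higher in HERVH KD and 0 were called lower. The 10 had a median log2 fold change of -0.265 there, with 4 above 0 and 6 below 0. Their summed level was 326 and 557 CPM against 352 and 406 CPM in WT. NOTCH3 made up 260 and 468 CPM of it, against 250 and 304 CPM in WT. MYH11 and MYOCD were not called. MYH11 was at 5.22 and 7.53 CPM in WT and 4.65 and 7.06 CPM in HERVH KD. MYOCD was at 0.600 and 0.935 CPM in WT and 3.72 and 2.11 CPM in HERVH KD, without overlap. In CHD7 KO, SYNPO2 and RGS5 were lower and ACTG2 higher, with a sum of 333 and 290 CPM. Of the fibroblast markers 6 of 10 were expressed enough to test and none was called in HERVH KD, where COL3A1, DCN, LUM and FAP were at 0 in both libraries. The sum was 189 and 496 CPM against 236 and 208 CPM in WT. Of 7 cardiomyocyte markers tested, RYR2 alone was called higher in HERVH KD and 0 were called lower, with 5 above 0 and 2 below 0. The summed level of the cardiomyocyte list was 108 and 104 CPM, against 67.8 and 70.9 CPM in WT. RYR2 made up 75.448 and 53.968 CPM of it, against 34.355 and 35.637 CPM in WT. TNNT2 was at 7.8295 and 12.964 CPM, below its 17.316 and 17.024 CPM in WT, and TNNI1 was also lower in both libraries. Of 8 endothelial markers tested, none was called in HERVH KD, with a sum of 44.1 and 67.4 CPM against 58.4 and 60.9 CPM in WT. TEK was lower in CHD7 KO, where the sum was 34.3 and 32.7 CPM. The part of such cells in the differences of the listed genes was not tested.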

How the data were processed

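RNA from 8 libraries was sequenced. The deposited files hold whole-number read counts per Ensembl gene, which the authors made by aligning strand-specific reads to hg19 with STAR and counting with HTSeq; the strand setting of the counting was not given in the sources used here. Rows of reads without a feature (34.9 to 42.5%) or ambiguous (3.81 to 4.75%) were left out. From the counts, TMM scaling, filterByExpr and the quasi-likelihood F test of edgeR 4.0.16 (R 4.3.3) were applied to all 8 libraries in 1 fit by group, with Benjamini-Hochberg adjustment over 23474 genes. The SE was derived from the F statistic. Alternatives were RLE scaling, other filters, DESeq2 1.42.0, fits of 4 libraries, a replicate block, a loess GC correction (span 0.3) and leaving out each library. The share of all genes called is given for the main fit and DESeq2 only, so counts from the other alternatives have no such background. The edgeR fit was tried on simulated counts in which all groups had the same spread and no GC difference was built in. The trial therefore does not cover the wider spread of the HERVH KD pair. Gene positions, exon lengths and GC content are from GENCODE on GRCh37, and promoters from RefSeq on GRCh38.p14. The genes and lists were chosen with earlier results of these data known. Genes given by library are those with an FDR below 0.05 against WT, the 3 largest changes per comparison, FLNC, SRF, YAP1 and WWTR1; others named were chosen after their values were seen. From the pathway lists, up to 4 genes past the FDR are given per comparison; 2 further lists are not reported here.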

Additional observations from a re-analysis of the deposited data

How the results depend on the processing

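Counts in this section are over the 34 genes other than FLNC, except where FLNC is said to be counted. FLNC is counted in the next paragraph, on leaving out 1 library, where counts are over all 35. Its selection therefore adds to some of those counts. Medians are over all 35. In HERVH KD the main fit gave 1 DEG, 2 genes higher and 0 lower. Fits without the expression filter called 4 genes higher in HERVH KD, 1 higher and 1 lower in CHD7 KO, and 6 higher in HERVH KD against HERVH KO. With FLNC counted these numbers were 5, 1, 2 and 7. DESeq2 called 4, 1, 1 and 5 in the same order, and 5, 1, 2 and 6 with FLNC counted. Fits of only the 4 libraries compared gave 0 DEGs in HERVH KD, and 2 genes higher and 2 lower in CHD7 KO. They gave 2 higher and 0 lower in HERVH KD against CHD7 KO, and 0 higher against HERVH KO. With FLNC counted, 3 were lower in CHD7 KO and 3 higher in HERVH KD against CHD7 KO. The GC correction gave 5 genes higher and 1 lower in HERVH KD, and 1 higher and 1 lower in CHD7 KO. It gave 2 lower in HERVH KD against CHD7 KO, and a median of 0.0362 in HERVH KO. With FLNC counted, 6 were higher in HERVH KD and 2 lower in CHD7 KO. The replicate block with GC correction gave 5 higher in HERVH KD, and 1 higher and 1 lower in CHD7 KO. It gave 2 lower in HERVH KD against CHD7 KO, and a median of 0.0435 in HERVH KO. With FLNC counted, 6 were again higher in HERVH KD and 2 lower in CHD7 KO. The causes were not tested.

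Leaving out 1 library at a time gave 0 to 4 DEGs, 0 to 12 genes higher and 0 to 2 lower in HERVH KD. In CHD7 KO it gave 0 to 1 DEGs, 0 to 2 genes higher, 0 to 4 lower and a median of -0.162 to -0.0429, and in HERVH KO a median of -0.084 to 0.0124. Against CHD7 KO, 2 to 15 genes were higher and 0 to 3 lower in HERVH KD, and against HERVH KO 1 to 14 were higher and 0 to 1 lower. The largest numbers of genes higher in HERVH KD, 12, 15 and 14, came from fits without HERVH KD replicate 1. Log2 fold changes near 0 or from few counts changed sign, running from -4.89 to 0.0691 for ANKRD1, -0.321 to 0.039 for TPM2 and -0.0793 to 0.278 for SRF in CHD7 KO, from -0.018 to 0.533 for TGFB1I1, -0.236 to 0.225 for WWTR1 and -0.00775 to 0.435 for SRF in HERVH KD, and from -0.0159 to 0.245 for FLNC in HERVH KO.

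The libraries share replicate numbers, which the labels do not tie to a batch or day. Deviations of same-numbered libraries from their group means correlated at 0.286 (WT with HERVH KD), 0.427 (WT with HERVH KO) and 0.295 (HERVH KD with HERVH KO), and at -0.233, -0.116 and -0.231 for CHD7 KO with WT, HERVH KD and HERVH KO. The fit without a block was the main one because the methods of the study name no block. Not every pair was positive, and whether the numbers mark a shared batch in WT, HERVH KD and HERVH KO was not tested. The replicate block alone left the genes higher in HERVH KD at 2 and changed no count by more than 1.5 times. A replicate block with the CHD7 KO numbers crossed was chosen after seeing the data. It called 3 genes higher in HERVH KD, 1 higher in CHD7 KO and 5 higher in HERVH KD against HERVH KO. With 2 libraries a group, differences below the spread of the HERVH KD pair could not be resolved, and ACTA2 and ANKRD1 lie near the floor of 3 counts.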
